A study of Caenorhabditis elegans with 8 samples.

Results

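This account covers the nuclear hormone receptor genes of Caenorhabditis elegans, a nematode, whose symbols have the form nhr- followed by a number. Members were the genes named by a probe with exactly 1 symbol of that form, and each was read from its brightest probe. The array held 275 such genes among 26128 genes named by a probe with 1 symbol and 29317 deposited probes in all, and each member had 1 probe. A reference gene table listed 283 such symbols, and 8 of them were not analysed here. Of the 275 members, 9 are annotated as pseudogenes in that table and the others as protein-coding.

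RNA came from whole synchronized populations of wild-type N2 Bristol worms, kept at 20 °C on plates seeded with the OP50 strain of E. coli, with M9 buffer applied and no further intervention. The groups were day 1 (3 arrays), day 6 (3 arrays) and day 12 (2 arrays) of adulthood, and no group carried an allele, transgene or drug. The labels call the replicates biological and do not say whether they were separate cultures, so the p-values measure the spread between these samples. Each population was measured whole, so fewer cells of a type and less RNA per cell cannot be told apart. Array medians over the 26761 probes tested lay between 2.30 and 2.39 on the log2 scale. Between arrays of the same day Pearson's r across probes was 0.984 or more, and probes are not independent replicates.

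Nuclear hormone receptors are transcription factors that bind DNA through a zinc finger domain and, in many members, a small lipophilic ligand through a second domain. A few C. elegans members have clear counterparts in insects and vertebrates, while most descend from an expansion related to the vertebrate receptor HNF4. The best studied members regulate fat metabolism, vitamin B12-dependent pathways, responses to toxins and pathogens, molting and development.

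Most receptor probes were dim. The mean log2 signal over the 8 arrays was under 3, a level treated here as near the floor, for 183 of 275 members (66.5%), against 63.2% of all probes tested. The median over members was 2.41, and only 11 members, or 4%, had a mean of 6 or more, against 18.8% of all probes. In all, 144 members stayed under 3 on every array. Probe brightness depends on the probe as well as on the transcript, so levels are compared within a gene and not between genes.

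**Figure D1:**
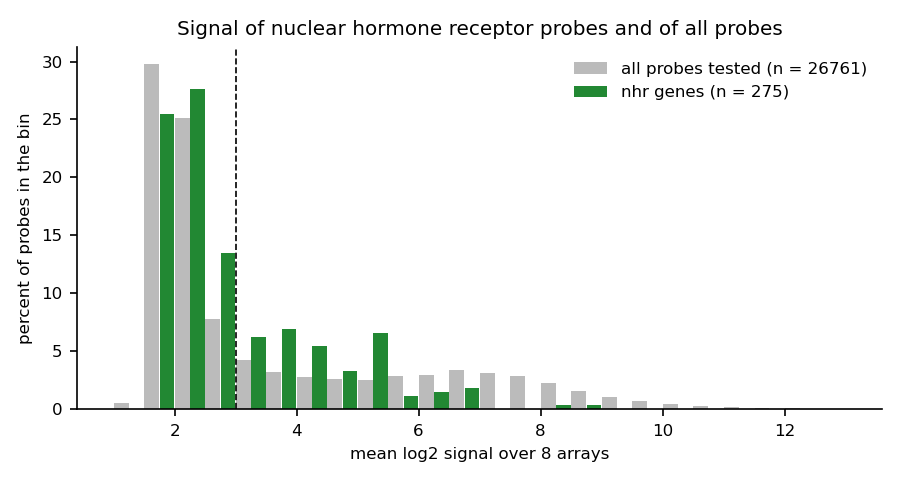
Distribution of the mean log2 signal over 8 arrays (x axis) as the percent of probes in each bin (y axis), for all 26761 probes tested (grey) and the 275 nhr genes (green), with a dashed line at 3. Of the nhr genes, 183 lie under the line and 11 reach 6 or more.

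The number of members with a signal of 3 or more was 89, 87 and 88 on the day 1 arrays, 90, 88 and 88 on the day 6 arrays, and 108 and 118 on the day 12 arrays. As a share of members this was 31.6% to 32.7% on the arrays of days 1 and 6 and then 39.3% and 42.9% at day 12. Over all probes tested the share moved less, from 35.8% to 37.1% on the arrays of days 1 and 6 to 38.6% and 39.4% at day 12. By day means, 31 members were under 3 at day 1 and at 3 or more at day 12, and 0 went the other way. Over all 26761 probes tested, 1337 crossed that level upward and 571 downward.

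Each pair of days was compared with limma, a linear model fitted to all probes, and a gene was called where its Benjamini-Hochberg adjusted p was under 0.05. Between day 6 and day 1, 8 members were called, 4 higher and 4 lower. This was 2.91% of members, against 3.85% of all probes tested (2.18% higher and 1.66% lower). From day 6 to day 12, 32 were called, 31 higher and 1 lower, against 9.05% of all probes. The rises made up 11.3% of members and 6.36% of all probes, and the falls 0.364% and 2.69%. Over the whole span from day 1 to day 12, 42 were called, 39 higher and 3 lower, which is 15.3% of members against 14.1% of all probes. Here the rises made up 14.2% of members and 9.58% of all probes, and the falls 1.09% and 4.52%. The shares of members called were thus close to the background in each comparison. The 8 calls between day 6 and day 1 became 5 when day 1 replicate 1 or day 6 replicate 3 was left out and 3 when day 6 replicate 1 was, and the 32 between day 12 and day 6 became 20 without day 12 replicate 2. The background shrank as well. Over all probes, the 1029 calls between day 6 and day 1 became 667 without day 1 replicate 1. They became 425 without day 6 replicate 3 and 281 without day 6 replicate 1. Calls over all probes between day 12 and day 6 also became fewer without day 12 replicate 2. With quantile normalization or cyclic loess the first comparison had 4 higher and 7 lower, or 4 higher and 8 lower, in place of 4 and 4. Between day 12 and day 6 the 2 settings gave 23 and 2, or 27 and 1, in place of 31 and 1. Between day 12 and day 1 they gave 30 and 5, or 34 and 6, in place of 39 and 3. Over all probes these 2 settings called 983 and 1003 between day 6 and day 1, in place of 1029. They called 2241 and 2401 between day 12 and day 6, in place of 2423, and 3599 and 3723 between day 12 and day 1, in place of 3773. The split between rises and falls lay further to the side of rises at day 12 than over all probes, a difference that was not tested.

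The median log2 difference of the members was 0.00 between day 6 and day 1, 0.08 between day 12 and day 6, and 0.11 between day 12 and day 1. Over all probes tested it was 0.02, -0.03 and -0.01 in the same order. Among the 92 members with a mean of 3 or more, the medians were 0.10, 0.25 and 0.35, against 0.12, -0.03 and 0.11 over the 9861 probes of that brightness. This mean includes the day 12 arrays, so a gene can pass the filter through its day 12 level alone. The gene nhr-91 did so, with day means of 2.63, 2.86 and 4.87. The rises in this part are therefore no separate support for a rise of the family. In this brighter part 7.61%, 21.7% and 27.2% of members were called in the 3 comparisons, against 9.36%, 18.3% and 29.2% of probes. The rises there were 3.26%, 20.7% and 23.9% of members, against 5.31%, 11.7% and 18.8% of probes. The falls were 4.35%, 1.09% and 3.26% of members, against 4.05%, 6.56% and 10.4% of probes. A call together with a log2 difference of at least 1 in either direction was reached by 4, 22 and 25 of all 275 members, where 1.98%, 6.02% and 8.33% of all probes did so. Called or not, 122 members (44.4%) had arrays that did not overlap between day 12 and day 6, against 38.1% of all probes. The day 12 arrays lay above in 89 of them and below in 33, or 32.4% and 12.0% of members against 18.1% and 20.0% of probes. For day 12 and day 1 the number was 120 (43.6% against 38.5%), with 88 above and 32 below, where 21.1% and 17.4% of probes did the same. For day 6 and day 1 it was 61 (22.2% against 23.2%), with 31 above and 30 below, or 11.3% and 10.9% against 14.3% and 8.90%. Of the 31 members that rose between day 6 and day 12, 15 began at a day mean under 3, as did 20 of the 39 that rose between day 1 and day 12. For these, and for every other gene named with a day mean under 3, the difference is given without a rank. Such a difference is called a lower bound only because the floor can hide part of it. Its value is still an estimate, and for some genes it was smaller with an array left out.

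**Figure D2:**
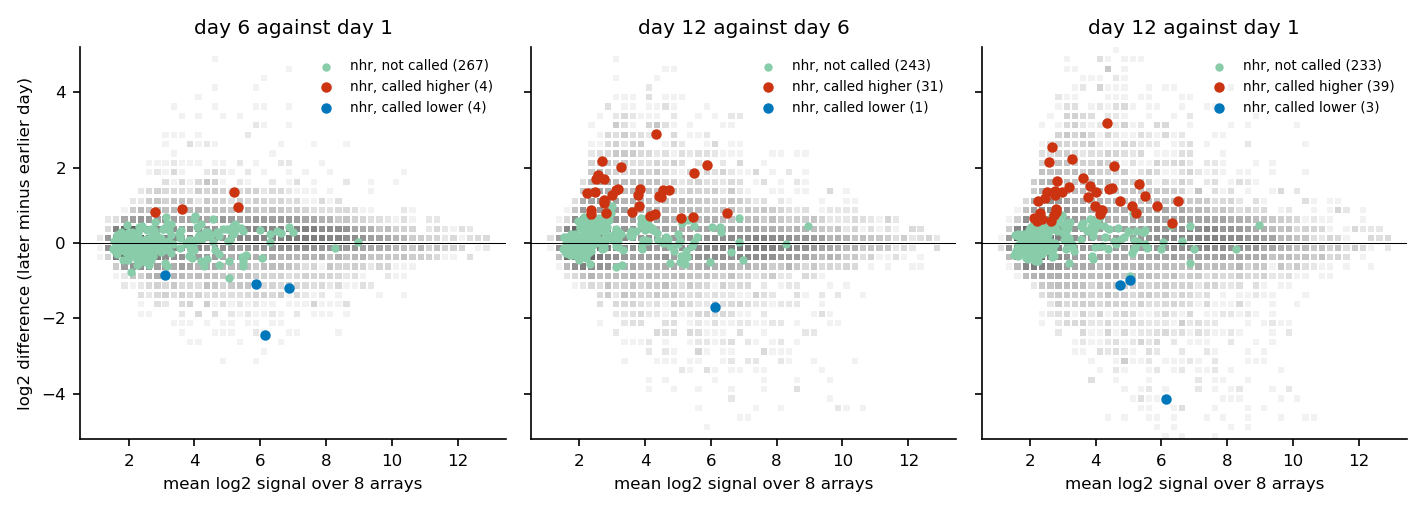
Log2 difference (y axis, later minus earlier day) against the mean log2 signal over 8 arrays (x axis) in the 3 comparisons, with all probes as grey bins that darken with their number and the nhr genes as points coloured by their call. The called genes number 4 higher and 4 lower at day 6 against day 1, then 31 and 1 at day 12 against day 6, and 39 and 3 at day 12 against day 1.

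By a moderated F-test over the 3 days, 41 members differed among the ages (adjusted p under 0.05), or 14.9% against 14.1% of all probes (27.2% against 29.9% at a mean of 3 or more). Of these 41, the day mean was highest at day 12 in 36, at day 1 in 4 and at day 6 in 1. It rose at each step in 23 (56.1%), fell at each step in 3 (7.32%), was lowest at day 6 in 14 (34.1%) and highest at day 6 in 1 (2.44%). Over all probes called by this test the shares were 43.1%, 22.0%, 20.0% and 14.8% in the same order. Of the 3786 probes called by this test over the whole array, 59.7% were highest at day 12, 25.5% at day 1 and 14.8% at day 6, against 87.8%, 9.76% and 2.44% of the 41 members. Over the 3 pairwise comparisons together, 48 members were called at least once and 227 were not. The matching share over all probes was not counted, so the 48 are not read as a result about the family. The map of these 48 genes shows their values on each array.

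**Figure D3:**
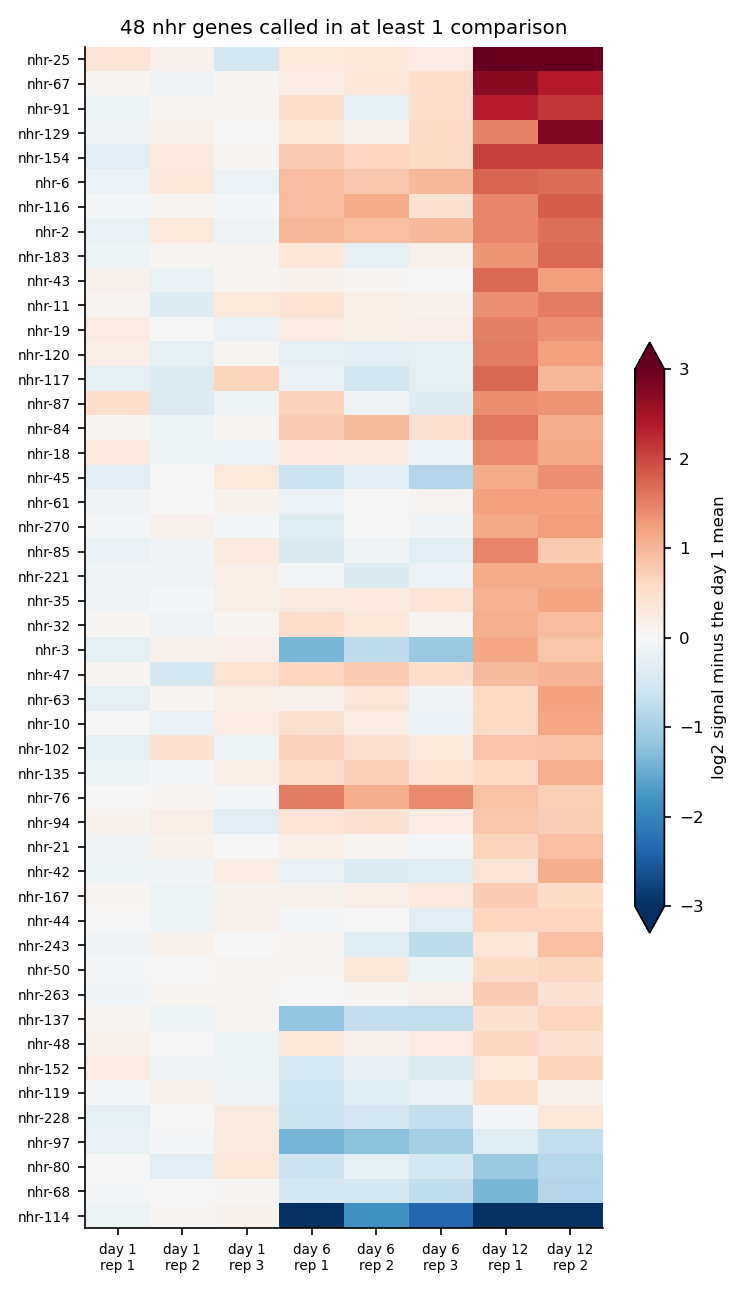
Log2 signal minus the gene's day 1 mean on each of the 8 arrays (columns) for the 48 nhr genes called in at least 1 comparison (rows, ordered by the difference between day 12 and day 1), with red above and blue below the day 1 mean and colours saturating at 3. The day 12 columns are red for most rows, and nhr-114, nhr-68, nhr-80 and nhr-97 are blue there, the last without a call between day 12 and day 1.

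Among the receptors with counterparts in other animal phyla and those that act in development and molting, several rose by day 12. Of 10 conserved receptors, 1 rose between day 6 and day 1, 5 between day 12 and day 6 and 6 between day 12 and day 1, and 0 fell. Over all probes tested 2.18%, 6.36% and 9.58% rose in these comparisons, and 5.31%, 11.7% and 18.8% of those with a mean of 3 or more. The lists were chosen with earlier results of these data known, so these counts describe the genes and test nothing. Their median log2 differences were 0.22, 0.63 and 0.83. Of 9 receptors of development and molting, 5 of which are also in the conserved list, 2, 4 and 5 rose in the same comparisons and 0 fell.

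The gene nhr-25 encodes the counterpart of Drosophila FTZ-F1 and vertebrate SF-1, and acts in epidermal development, molting and the somatic gonad. Its log2 signal was 3.81, 3.56 and 2.90 at day 1, then 3.73, 3.77 and 3.68 at day 6, and 6.67 and 6.56 at day 12. Both day 12 arrays thus stood far above the other 6, which overlapped between days 1 and 6. The log2 difference was 2.89 ± 0.24 (SE) between day 12 and day 6 (limma adjusted p = 4.54e-05) and 3.19 ± 0.24 between day 12 and day 1 (adjusted p = 1.34e-05), a 9.14-fold rise. Between day 6 and day 1 it was 0.30 ± 0.21 and was not called (adjusted p = 0.544).

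The gene nhr-67 encodes the counterpart of Drosophila Tailless and vertebrate TLX, known in the worm for its role in the anchor cell and vulva. It read 1.97, 1.80 and 1.96 at day 1, then 2.14, 2.27 and 2.41 at day 6, and 4.61 and 4.29 at day 12. The signal was near the floor on the first 6 arrays and clearly above it on the last 2. The difference between day 12 and day 6 was 2.18 ± 0.16 (adjusted p = 3.03e-05), and between day 12 and day 1 it was 2.54 ± 0.16 (adjusted p = 7.64e-06). The gene nhr-91, related to vertebrate germ cell nuclear factor, took a similar course: 2.48, 2.73 and 2.70 at day 1, then 3.12, 2.34 and 3.11 at day 6, and 4.99 and 4.76 at day 12. Its arrays of days 1 and 6 overlapped, and the rise from day 6 to day 12 was 2.02 ± 0.24 (adjusted p = 0.000413). The gene nhr-85, the counterpart of Drosophila E75 and vertebrate Rev-Erb and part of the timing of larval development, was at 4.56 ± 0.26 (mean ± SD, n = 3) at day 1, 4.28 ± 0.17 at day 6 and 5.68 ± 0.48 (n = 2) at day 12. It rose by 1.40 ± 0.23 between day 6 and day 12 (adjusted p = 0.0031). Its call between day 12 and day 1 (1.12 ± 0.23, adjusted p = 0.00795) was lost without day 12 replicate 1 (adjusted p = 0.0848).

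Unlike these, nhr-6 and nhr-2 were already higher at day 6. The gene nhr-6 encodes the worm's NR4A receptor, which is required for the spermatheca to form. It read 2.66, 3.19 and 2.68 at day 1, then 3.78, 3.65 and 3.82 at day 6, and 4.60 and 4.53 at day 12, so that no 2 days overlapped. Its differences were 0.91 ± 0.17 between day 6 and day 1 (adjusted p = 0.0165), 0.81 ± 0.19 between day 12 and day 6 (adjusted p = 0.0204) and 1.72 ± 0.19 between day 12 and day 1 (adjusted p = 0.000138). The first call was lost without day 1 replicate 1, day 6 replicate 1 or day 6 replicate 3 (adjusted p = 0.0544, 0.0758 and 0.0675). The second was lost with quantile normalization (adjusted p = 0.115) and without any single array of day 6 or day 12 (0.0502 to 0.11), and the third held with each array left out. The gene nhr-2, which acts in early embryos, read 4.35, 4.88 and 4.46 at day 1, then 5.56, 5.47 and 5.54 at day 6, and 6.04 and 6.22 at day 12. It rose by 0.96 ± 0.16 between day 1 and day 6 (adjusted p = 0.0117), a call lost without day 6 replicate 1 (adjusted p = 0.0576). From day 1 to day 12 it rose by 1.57 ± 0.18 (adjusted p = 0.000214).

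Other members of these lists gave no call, or one that rested on single arrays. The gene nhr-23, counterpart of ROR and required for molting, read 8.24 to 8.54 at day 1, 8.16 to 8.29 at day 6, and 8.51 and 7.91 at day 12. Its arrays overlapped between all days, and the difference between day 12 and day 1 was -0.15 with a 95% interval from -0.59 to 0.28 (adjusted p = 0.711). The gene nhr-48, a relative of the vitamin D receptor group, was called higher between day 12 and day 1 (0.54 ± 0.16, adjusted p = 0.0464), and this call held in only 1 of the 8 fits that leave out an array (highest adjusted p = 0.235, without day 12 replicate 1). The gene nhr-31, needed for the tubule of the excretory cell, had the lowest differences from day 1 in these lists. It read 5.33, 5.44 and 6.08 at day 1, then 4.21, 4.77 and 5.09 at day 6, and 4.87 and 4.60 at day 12, all below day 1, and was not called (adjusted p = 0.0805 and 0.0698 against day 1). With quantile normalization both of these differences were called lower (adjusted p = 0.0495 and 0.0183). The genes nhr-40, nhr-41, nhr-60, nhr-111 and nhr-8 were not called in any comparison, and nhr-60 and nhr-111 had day means under 3 throughout.

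Markers of embryos and of molting larvae were read beside these rises. The mean signal over 10 embryo markers was 3.32 to 3.48 on the day 1 arrays, 3.75 to 3.80 at day 6, and 4.50 and 4.57 at day 12. Of the 10, 2 rose between day 6 and day 1, 4 between day 12 and day 6 and 5 between day 12 and day 1, and 0 fell. Over all probes tested 2.18%, 6.36% and 9.58% rose and 1.66%, 2.69% and 4.52% fell. Some of these calls were not firm. That of tbx-11 at day 6 was lost without day 6 replicate 1 or 3 (adjusted p = 0.0594 and 0.0525). Between day 12 and day 1, tbx-37 was lost without day 1 replicate 1 or 3 (0.0549 and 0.063), and pha-4 with quantile normalization (0.0597). The T-box genes tbx-8 (2.71 ± 0.17 between day 12 and day 1, a lower bound from a day 1 mean of 2.28) and tbx-38 (2.53 ± 0.29), which specify cell fates in embryos, were among them, while the endoderm genes end-1 and end-3 had day means under 3 throughout. Of 5 markers of molting larvae, 0 rose and 1 fell between day 6 and day 1, 1 rose and 0 fell between day 12 and day 6, and 2 rose and 0 fell between day 12 and day 1. The risers were the apical matrix gene noah-1 (3.73 ± 0.23 between day 12 and day 1) and mlt-10 (0.81 ± 0.18, a lower bound, adjusted p = 0.0138, lost without day 12 replicate 2 at 0.13), while bli-1 stayed under 3 by day mean. The one that fell was the molting protease gene nas-37 (-1.03 ± 0.18 between day 6 and day 1, adjusted p = 0.0145), a call lost without day 6 replicate 1 or 3 (adjusted p = 0.0681 and 0.0539). Its difference of -0.53 between day 12 and day 1 was not called (adjusted p = 0.125), though it was with quantile normalization (adjusted p = 0.0104) or without day 1 replicate 1 (0.023). Of 13 germline and oocyte markers, 1 rose and 0 fell between day 6 and day 1, 1 rose and 1 fell between day 12 and day 6, and 2 rose and 0 fell between day 12 and day 1. Their median differences were 0.19, -0.47 and -0.24. The calls between day 12 and day 6 (perm-2 higher, puf-5 lower) were lost with the replicate block (adjusted p = 0.0632 and 0.0972). They were also lost without day 6 replicate 2 (0.112 and 0.0944). With limma's intensity trend, cbd-1, egg-1, egg-2, oma-2 and pgl-1 were called lower as well in this interval (adjusted p from 0.00743 to 0.0213). The mean over 4 epidermis and adult cuticle markers was 4.43 to 4.49 on the day 1 arrays and 3.24 and 2.74 at day 12. Between day 12 and day 1, 1 of them rose and 1 fell. In the same comparison 2 of 5 sperm markers and 1 of 4 measured neuron markers rose, and 0 fell. The rises of dpy-7, spe-11 and snb-1 in these lists were lost in fits with an array left out. The part of any of these tissues in the receptor values was not tested.

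**Figure D4:**
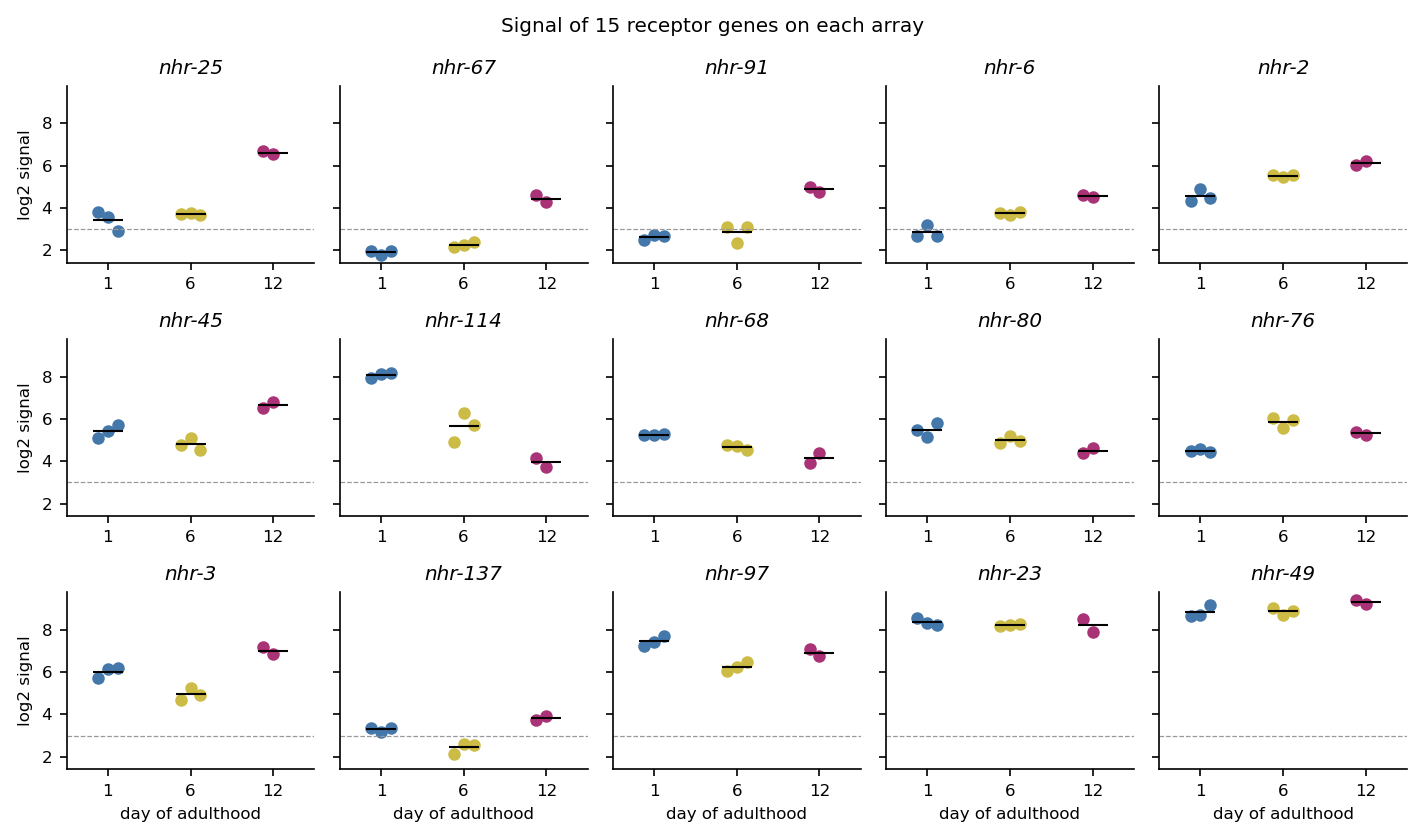
Log2 signal (y axis) of 15 receptor genes by day of adulthood (x axis), with each point 1 array, each bar the day mean and a dashed line at 3. In nhr-25, nhr-67 and nhr-91 the 2 day 12 arrays stand apart from the other 6, in nhr-6 and nhr-2 each day lies above the one before, in nhr-114 each day lies below it, and nhr-3 and nhr-137 are lowest at day 6.

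Receptors of fat, diet and vitamin B12 metabolism held the 3 members that fell by day 12. Of 11 in the list, 1 rose and 1 fell between day 6 and day 1, 0 rose and 1 fell between day 12 and day 6, and 2 rose and 3 fell between day 12 and day 1. In the same order, 2.18%, 6.36% and 9.58% of all probes rose, and 1.66%, 2.69% and 4.52% fell. Among probes with a mean of 3 or more, 18.8% rose and 10.4% fell between day 12 and day 1. This list too was chosen with earlier results of these data known. The gene nhr-114 is expressed in intestine and germline and, in worms short of vitamin B12, induces genes of the methionine cycle. It read 7.93, 8.11 and 8.19 at day 1, then 4.93, 6.27 and 5.72 at day 6, and 4.17 and 3.74 at day 12. No 2 days overlapped, and the day 6 arrays were the most spread (SD 0.67). The difference was -2.44 ± 0.29 between day 6 and day 1 (adjusted p = 0.00263) and -4.13 ± 0.32 between day 12 and day 1 (adjusted p = 1.81e-05), or 17.5-fold lower. The fall from day 6 to day 12 was -1.69 ± 0.32 (adjusted p = 0.00767), a call lost without day 12 replicate 2 (adjusted p = 0.0984).

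The gene nhr-68 acts with nhr-10 to switch on the propionate shunt, a route that breaks down propionate when vitamin B12 is low. It read 5.23, 5.25 and 5.29 at day 1, then 4.75, 4.73 and 4.51 at day 6, and 3.90 and 4.38 at day 12, each day below the one before. Between day 12 and day 1 it fell by 1.12 on the log2 scale (SE 0.18, adjusted p = 0.00163), and neither single interval was called (adjusted p = 0.0721 and 0.109). With quantile normalization both were called lower (adjusted p = 0.04 and 0.0196), and the first also with cyclic loess (0.0343) or without either day 12 array (0.0489). Its partner nhr-10 had the opposite sign, with means of 3.84 ± 0.24, 3.998 ± 0.34 and 4.73 ± 0.39. Its rise between day 1 and day 12 (0.88 ± 0.24, adjusted p = 0.0352) was lost with quantile normalization (adjusted p = 0.108) and in 4 of the 8 fits with an array left out, without day 1 replicate 1 or 2, day 6 replicate 2 or day 12 replicate 2 (adjusted p from 0.0528 to 0.285).

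The gene nhr-80 works with nhr-49 to control fatty acid desaturation, and is known for the long life of worms without a germline. Its means were 5.48 ± 0.34 at day 1, 4.99 ± 0.18 at day 6 and 4.50 ± 0.18 at day 12, and the arrays of days 1 and 6 overlapped. Between day 12 and day 1 it fell by 0.98 on the log2 scale (SE 0.21, adjusted p = 0.0108), a call lost without day 12 replicate 1 (adjusted p = 0.0957). The gene nhr-49, a regulator of fat oxidation and of the response to starvation, read 8.66, 8.70 and 9.15 at day 1, then 9.01, 8.70 and 8.88 at day 6, and 9.38 and 9.24 at day 12. Both day 12 arrays were above all others, and the difference from day 1 was 0.48 with a 95% interval from 0.06 to 0.89, not called (adjusted p = 0.144), though called without day 1 replicate 3 (adjusted p = 0.0415). Its other partners nhr-66 and nhr-13 had differences of -0.15 and -0.10 between day 12 and day 1 and were not called in any comparison, as were nhr-62, nhr-64 and nhr-69.

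The gene nhr-76, which acts in the intestine in fat loss driven by serotonin from neurons, had its highest values at day 6. It read 4.51, 4.57 and 4.44 at day 1, then 6.06, 5.59 and 5.93 at day 6, and 5.39 and 5.23 at day 12. No day's arrays overlapped those of another. Its rise between day 1 and day 6, 1.35 ± 0.15 (adjusted p = 0.00215), held with each array left out. Between day 12 and day 6 the difference was -0.55 ± 0.17 (not called, adjusted p = 0.0864), and the day 12 level was still 0.81 ± 0.17 above that of day 1 (adjusted p = 0.0097), a call lost without day 12 replicate 1 (adjusted p = 0.077).

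Genes that these receptors are known to regulate were read beside them. Of 9 genes of the methionine cycle and its branches, 0 rose in any comparison, and 3 fell between day 6 and day 1, 2 between day 12 and day 6 and 7 between day 12 and day 1. Over all probes tested 1.66%, 2.69% and 4.52% fell and 2.18%, 6.36% and 9.58% rose. These shares are also the background for the lists that follow. The S-adenosylmethionine synthetase gene sams-1 went from 8.19 ± 0.10 to 6.84 ± 0.33 and 5.76 ± 0.08, and the phosphoethanolamine methyltransferase gene pmt-2 from 8.82 ± 0.26 to 7.30 ± 0.42 and 5.82 ± 0.11. Between day 12 and day 1 they fell by 2.43 and 3.002 on the log2 scale (SE 0.20 and 0.24, adjusted p = 2.22e-05 and 2.18e-05). The count of 7 went down to 4 when day 12 replicate 2 was left out. Of 4 measured genes of the propionate shunt, all 4 fell between day 12 and day 1 and 0 rose in any comparison. The acyl-CoA dehydrogenase gene acdh-1 went from 9.89 ± 0.29 at day 1 to 8.86 ± 0.25 at day 6 and 5.65 ± 0.65 at day 12, or 18.9-fold lower between day 1 and day 12 (adjusted p = 8.06e-06).

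Of 9 NHR-49 targets, 1 rose and 3 fell between day 12 and day 1, and 0 were called by limma between day 6 and day 1 (4 had an unadjusted p under 0.05). The stearoyl-CoA desaturase gene fat-7 fell by 3.55 on the log2 scale (SE 0.61, adjusted p = 0.00272), with SDs of 1.20 at day 1 and 1.15 at day 12, and the flavin monooxygenase gene fmo-2 rose by 1.71 ± 0.42 from a day 1 mean of 2.53 (a lower bound, adjusted p = 0.0197), a call lost without day 1 replicate 1, day 1 replicate 3 or day 12 replicate 2 (adjusted p from 0.055 to 0.204). The falls went from 3 to 1 without either day 12 array. Of 7 intestine markers, 4 fell between day 6 and day 1, 4 between day 12 and day 6 and 5 between day 12 and day 1, and 0 rose. The mean signal of the 7 was 6.39 to 7.08 on the day 1 arrays, 5.48 to 5.80 at day 6 and 4.67 and 4.53 at day 12, while the intestinal GATA factor genes elt-2 and elt-7 were not called in any comparison, with differences of -0.75 and 0.19 between day 12 and day 1. Without day 1 replicate 1, elt-2 was called lower at day 6 and at day 12 than at day 1 (adjusted p = 0.0398 and 0.024), and also with quantile normalization (0.0367 and 0.0167). All 5 muscle markers fell as well between day 1 and day 12. The part of intestine or muscle in the receptor and target values was not tested.

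**Figure D5:**
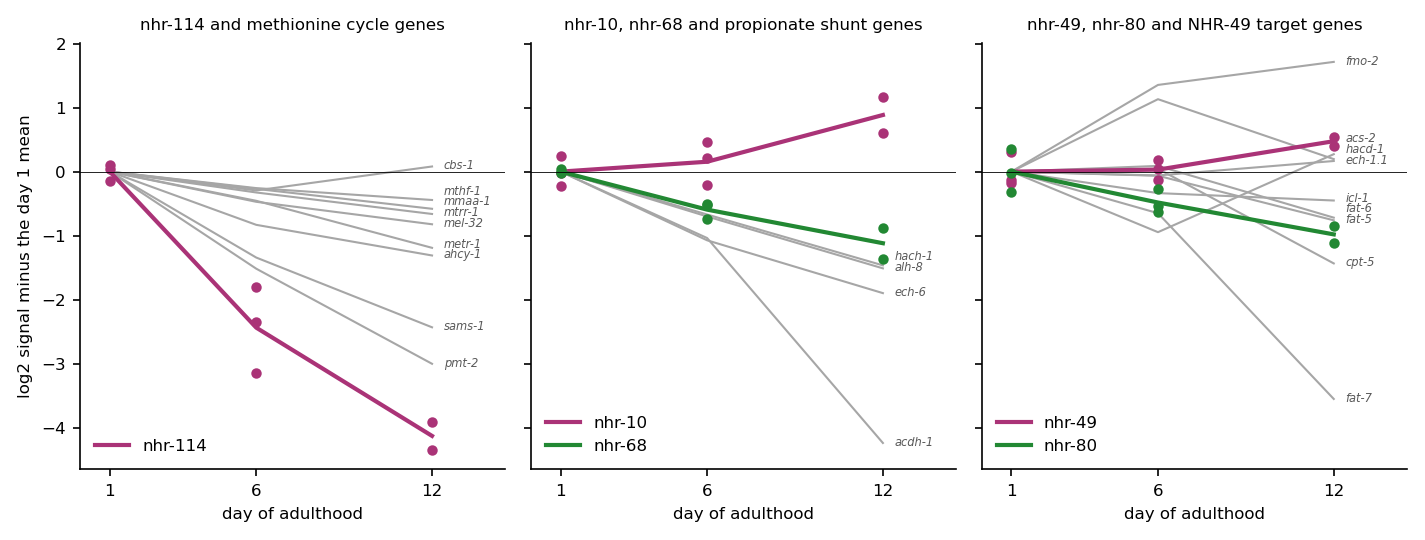
Mean log2 signal minus the day 1 mean (y axis) by day of adulthood (x axis) for receptors (coloured lines, with a point per array) and genes they are known to regulate (grey lines). By day 12 nhr-114, sams-1 and pmt-2 differ from day 1 by -4.13, -2.43 and -3.002, nhr-68 and acdh-1 by -1.12 and -4.24, and nhr-49 by 0.48.

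Among 6 receptors of xenobiotic, iron, hypoxia and pathogen responses, 0 were called by limma between day 6 and day 1 (2 had an unadjusted p under 0.05), and only nhr-45 was called in either comparison with day 12. The gene nhr-45 takes part in a detoxification response to failing mitochondria. It read 5.08, 5.43 and 5.72 at day 1, then 4.76, 5.09 and 4.52 at day 6, and 6.53 and 6.78 at day 12, with overlap only between days 1 and 6. It rose by 1.86 ± 0.23 between day 6 and day 12 (adjusted p = 0.000486) and was 1.24 ± 0.23 higher at day 12 than at day 1 (adjusted p = 0.00392). The gene nhr-86, whose product responds to a metabolite of a bacterial pathogen, had means of 6.52 ± 0.26, 6.78 ± 0.04 and 6.56 ± 0.02, and its difference between day 12 and day 1 was 0.04 with a 95% interval from -0.34 to 0.42. Of 6 genes that NHR-86, NHR-14 or NHR-176 is known to regulate, 2 rose and 0 fell between day 6 and day 1, 0 rose and 2 fell between day 12 and day 6, and 1 rose and 1 fell between day 12 and day 1. The immune gene irg-5 rose by 1.76 ± 0.19 between day 1 and day 6 (adjusted p = 0.00174) and was lower again at day 12 (-1.70 ± 0.21 against day 6, adjusted p = 0.000605). The irg-4 gene went from 6.17 ± 0.78 at day 6 to 2.32 ± 0.79 at day 12 (-3.85 ± 0.51, adjusted p = 0.000835), a lower bound since day 12 was near the floor. The ferritin gene ftn-1 rose from a day 1 mean of 1.85, near the floor. The rise was 1.49 ± 0.28 to day 6 and 1.39 ± 0.31 to day 12 (adjusted p = 0.0175 and 0.0127). The second call was lost without day 12 replicate 1 or 2 (differences of 1.52 and 1.26). The genes irg-6, smf-3 and cyp-35D1 were not called in any comparison, though smf-3 was lower at day 6 than at day 1 without day 1 replicate 1 (adjusted p = 0.0352), and cyp-35D1 lower at day 12 than at day 6 without day 1 replicate 3 (0.0219). The genes nhr-8 (xenobiotic resistance), nhr-14 (iron uptake), nhr-57 (a hypoxia-induced gene) and nhr-176 (the response to thiabendazole) were not called, and nhr-176 had day means under 3 throughout.

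The remaining 245 members have no role in the lists used here. Of these, 1 rose and 3 fell between day 6 and day 1, 25 rose and 0 fell between day 12 and day 6, and 29 rose and 0 fell between day 12 and day 1. The rises at day 12 were 10.2% and 11.8% of these members, against 6.36% and 9.58% of all probes. The genes nhr-154 and nhr-183 rose from levels above the floor. The gene nhr-154 read 3.46, 4.10 and 3.85 at day 1, then 4.55, 4.44 and 4.35 at day 6, and 5.86 and 5.85 at day 12. Its values went up at each step without overlap, by 2.05 ± 0.19 in all (adjusted p = 5.34e-05). The gene nhr-183 had means of 3.43 ± 0.13, 3.50 ± 0.32 and 4.94 ± 0.26, and rose by 1.44 ± 0.21 between day 6 and day 12 (adjusted p = 0.00145).

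Others came up from the floor, so that their differences are lower bounds in the sense given above. The gene nhr-129 read 1.80, 2.03 and 1.90 at day 1, then 2.24, 2.002 and 2.49 at day 6, and 3.39 and 4.71 at day 12, so that the 2 day 12 arrays were both higher but far apart (SD 0.94). The difference from day 1 to day 12 was 2.14 ± 0.32 (adjusted p = 0.00121). The genes nhr-43 and nhr-120 rose by 1.43 ± 0.18 and 1.69 ± 0.18 from day 6 to day 12 (adjusted p = 0.000602 and 0.000218), and both calls held with each array left out. The gene nhr-117 rose by 1.70 ± 0.32 in the same interval (adjusted p = 0.00687), a call lost without day 12 replicate 1 (adjusted p = 0.0787). The gene nhr-116 rose in both intervals, with means of 2.09 ± 0.06, 2.92 ± 0.33 and 3.73 ± 0.26. Its calls in the single intervals (0.83 ± 0.18, adjusted p = 0.0362, and 0.81 ± 0.21, adjusted p = 0.0361) were lost in 5 and 6 of the 8 fits with an array left out, with adjusted p up to 0.15 and 0.281. Between day 12 and day 1 it rose by 1.64 ± 0.21 (adjusted p = 0.000398), which held in all 8.

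A different course was measured in nhr-3, nhr-137 and nhr-97, which fell between day 1 and day 6. The gene nhr-3 read 5.75, 6.15 and 6.19 at day 1, then 4.67, 5.27 and 4.92 at day 6, and 7.18 and 6.86 at day 12, with no overlap between days. It fell by 1.08 on the log2 scale (SE 0.20, adjusted p = 0.0159) and then rose by 2.07 ± 0.22 (adjusted p = 0.000216), a level 0.99 ± 0.22 above that of day 1 (adjusted p = 0.0118). The fall was lost without day 1 replicate 2, day 6 replicate 1 or day 6 replicate 3 (adjusted p = 0.0557, 0.0758 and 0.0606), and the difference between day 12 and day 1 without day 12 replicate 1 (adjusted p = 0.108). The gene nhr-137 read 3.37, 3.17 and 3.38 at day 1, then 2.15, 2.61 and 2.58 at day 6, and 3.74 and 3.95 at day 12. Its fall of 0.86 (SE 0.16, adjusted p = 0.0192) was lost in 4 of the 8 fits, without day 1 replicate 1 or 3 or day 6 replicate 1 or 3 (adjusted p from 0.0502 to 0.0808), and its rise of 1.40 ± 0.18 (adjusted p = 0.000766) held in all 8. These were the members called in opposite directions in the 2 intervals, and both intervals share the day 6 arrays. The gene nhr-97 went from 7.45 ± 0.26 to 6.24 ± 0.21 between day 1 and day 6 (-1.20 ± 0.18, adjusted p = 0.00797), which held with each array left out, and stood at 6.91 ± 0.24 at day 12.

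Among members with a mean signal of 6 or more, nhr-35 rose by 1.12 ± 0.15 between day 1 and day 12 (adjusted p = 0.000647) and by 0.80 ± 0.15 between day 6 and day 12 (adjusted p = 0.00746), the second call being lost without day 12 replicate 2 (adjusted p = 0.0715). The genes nhr-20 and nhr-17 had differences of 0.45 (95% interval 0.12 to 0.78) and 0.44 (0.06 to 0.82) between day 12 and day 1 and were not called.

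Many receptor genes lie side by side. In the reference gene order, 136 of the 275 members had another member as their direct neighbour among protein-coding genes and pseudogenes, in 45 runs of up to 8 genes. Of these 136, 15 rose and 0 fell between day 12 and day 1. Of the 139 with no such neighbour, 24 rose and 3 fell. The rises were 11% and 17.3% of these sets, against 9.58% of all probes, and the difference between the sets was not tested. In 13 of the 45 runs at least 1 member rose, and in 2 of them 2 did. These were nhr-84 with nhr-102 (1.35 ± 0.21 and 0.87 ± 0.22, adjusted p = 0.00149 and 0.0241) and nhr-50 with nhr-63 (0.60 ± 0.17 and 0.90 ± 0.22, adjusted p = 0.0445 and 0.0222), pairs singled out after their values were seen. The calls of nhr-102, nhr-50 and nhr-63 were lost in 4, 6 and 2 of the 8 fits with an array left out, with the highest adjusted p without day 12 replicate 2 (0.131, 0.178 and 0.213). In the run of 7 that holds nhr-154, the other 6 had differences between -0.26 (nhr-207) and 0.67 (nhr-209) and were not called. Of the 9 pseudogenes 0 were called by limma in any comparison, and 1 had an unadjusted p under 0.05 between day 6 and day 1. Whether each probe separates its gene from close copies was not tested.

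Receptors named without a number and the pathway of the best known worm receptor hormone were read for comparison. The gene sex-1, whose product counts X chromosomes in embryos, went from 4.93 ± 0.35 to 6.06 ± 0.16 and 7.30 ± 0.04, and rose by 2.37 ± 0.21 between day 1 and day 12 (adjusted p = 3.41e-05). The gene daf-12, whose product binds the steroid dafachronic acid and controls dauer entry and lifespan, had means of 5.27 ± 0.07, 5.15 ± 0.15 and 5.96 ± 0.25. Its rise from day 6 to day 12 (0.81 ± 0.17, adjusted p = 0.0121) was lost without day 12 replicate 1 (adjusted p = 0.103). The rise of daf-12 between day 1 and day 12 (0.69 ± 0.17, adjusted p = 0.019) was 0.52 without day 12 replicate 1, and its call was lost there. This call was also lost with quantile normalization, cyclic loess or the replicate block (adjusted p = 0.0722, 0.0619 and 0.0552), and without day 1 replicate 1 (0.0513). The neuronal receptor genes fax-1, odr-7 and unc-55 had day means under 3 and were not called. Of 10 genes of the dafachronic acid pathway, daf-12 included, 0 rose and 1 fell between day 6 and day 1, 4 rose and 0 fell between day 12 and day 6, and 3 rose and 1 fell between day 12 and day 1. The Rieske oxygenase gene daf-36, which starts the synthesis of the hormone from cholesterol, went from 3.91 ± 0.17 to 2.97 ± 0.15 and 2.43 ± 0.55 (-1.49 ± 0.23 between day 12 and day 1, a lower bound on the fall, adjusted p = 0.00133). Its call between day 6 and day 1 (adjusted p = 0.0328) was lost without any single array of those days (0.0641 to 0.119). The dehydrogenase gene dhs-16 rose from 2.11 ± 0.13 at day 6 to 3.62 ± 0.35 at day 12 (1.503 ± 0.20, a lower bound, adjusted p = 0.000887), and the DAF-12 corepressor gene din-1 from 6.46 ± 0.17 to 7.47 ± 0.10 (1.02 ± 0.16, adjusted p = 0.00257). The Mediator subunit gene mdt-15, a coactivator of NHR-49, differed between day 12 and day 1 by -0.02 with a 95% interval from -0.40 to 0.35.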

How the data were processed

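The deposited table holds log2 signals per probe from Affymetrix C. elegans Gene 1.1 ST arrays, 1 array per sample. Per the labels' protocols, total RNA was extracted with Trizol and biotin-labelled cRNA was made from 6 ug. The sources used here do not give the software, background correction, normalization or log base, and log2 was inferred from the range of the values, 0.68 to 13.23. The deposited values were used without further normalization, and their precision is limited by 8 arrays. Scan or extraction batches are not given, so a batch that follows the day cannot be told apart from age.

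The 26761 probes with a gene symbol were fitted with limma 3.58.1 in R 4.3.3 (day as the only factor, empirical Bayes, Benjamini-Hochberg adjustment over all these probes), with 5 residual degrees of freedom. The fit was tested on simulated data. Member symbols came from the platform annotation. All 275 matched a RefSeq gene table of assembly WBcel235, through which other symbols were updated. That table was used only for names, gene type and neighbours. Day means under 3 were treated as near the floor.

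Members and gene lists were chosen with earlier results of these data known. Genes named were, per comparison, among the 10 largest called rises and falls, the 10 brightest members, the role lists, and members called in opposite directions in the intervals. The exceptions were nhr-84, nhr-102, nhr-50, nhr-63, nhr-207 and nhr-209, named from the runs of neighbours after their values were seen. The rule's choice of near-identical protein pairs was not applied, since no protein sequences were used here. Alternatives were limma's intensity trend with robust priors, quantile, cyclic loess or median normalization, a filter on dim probes, all probes, only the arrays of the days compared, the replicate number as a block, and each array left out.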

Additional observations from a re-analysis of the deposited data

How the results depend on the processing

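No named member that was called turned direction under any of the alternatives. The count of members called went from 8 to between 3 and 9 between day 6 and day 1 when single arrays were left out, from 32 to between 20 and 33 between day 12 and day 6, and from 42 to between 32 and 42 between day 12 and day 1. The low counts were 3 (day 6 replicate 1 left out) and 5 (day 1 replicate 1 or day 6 replicate 3 left out) in the first comparison, and 20 (day 12 replicate 2 left out) in the second. These counts include members newly called, so fewer of the original calls were kept. In the 3 comparisons, 3 of 8 were kept without day 6 replicate 1, 24 of 32 without day 6 replicate 3 and 33 of 42 without day 1 replicate 2. Original calls in the comparisons with day 12 were also lost without either day 12 array, fits that leave 1 array at that day. With an array left out, the median log2 difference of the members ranged from -0.0279 to 0.0354, from 0.0748 to 0.1277 and from 0.0561 to 0.1371. It was 0.0451 between day 12 and day 6 with quantile normalization. With only probes whose mean reached 3 on at least 1 day, it was 0.0865, 0.3451 and 0.4444, by construction over brighter members. A member can pass this filter through day 12 alone, which favours rises. Elsewhere the cause was not tested. The deviations of same-numbered arrays from their day means had correlations from -0.1141 to 0.1122. With 2 or 3 arrays per day such deviations constrain each other, so whether the numbers pair the samples cannot be told. With the replicate number as a block, 9, 28 and 36 members were called, and the median between day 12 and day 6 was 0.1302. Each member had 1 probe, so a mean over probes equals the value given. Signal near the floor limits the sizes given: of the 144 members under 3 on every array 4 were called, and the floor can hide part of such differences.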
